A study of Mustela putorius furo with 10 samples.

Results

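The genes described here are 8 genes of the red cell lineage, namely HBM, AHSP, ALAS2, SLC4A1, EPB42, KLF1, SPTB and ANK1, as measured in ferret peripheral blood mononuclear cells (PBMC, the lymphocyte and monocyte fraction that a density gradient separates from blood). They were listed by symbol and matched to the array through the RefSeq gene name of each target sequence. A gene was measured where Cy3, the green dye that labelled the RNA of the ferret, was flagged by the scanner software as well above background on at least 4 of the 10 arrays. Of the 8 genes, 6 were matched and 5 were measured (HBM, ALAS2, SLC4A1, EPB42 and SPTB), out of 26303 genes measured in all. KLF1 was matched but did not reach that limit, and AHSP and ANK1 were not matched and were not analysed here. HBM had been listed for its difference between the groups in these same data, so its group values are a description with no test.

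Male ferrets of 3 months of age were kept at 22 °C (control) or at 4 °C for 1 week (cold), and the cold animals were housed individually. RNA of PBMC from 6 control and 4 cold ferrets was labelled with Cy3, and each sample was hybridised to its own array together with a reference pool labelled with the red dye Cy5. The pool was the same on every array and combined PBMC RNA with RNA of other ferret tissues. The comparison asks how the blood cell transcriptome of the ferret differs after a week in the cold.

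Red cells arise in the bone marrow from erythroblasts, which fill with haemoglobin, build a spectrin network under the cell membrane and lose their nucleus to become reticulocytes. Reticulocytes still hold RNA when they enter the blood and lose it as they mature, so that erythroid transcripts in blood come mostly from young red cells. Mononuclear cells do not make haemoglobin, and a density gradient removes most but not all red cells.

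Values are given on 3 scales. The log2 ratio is that of Cy3 to Cy5 after background correction and loess normalisation, and is above 0 where the ferret sample gave the stronger signal. The log2 Cy3 value is that of the ferret sample alone after quantile normalisation. The intensity is the median brightness of a spot less its local background, averaged over the probes of the gene, before any normalisation. All are averages over cells, so fewer cells of a type and less RNA per cell cannot be told apart.

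The 10 arrays lay on 10 slides scanned on 1 day, and 50.4 to 63.5% of their spots were well above background in Cy3. In Cy5 this share ran from 27.0 to 54.9% on control arrays and from 40.5 to 64.0% on cold arrays. Of the marker genes of mononuclear cells, 9 for T cells, 6 for B cells, 3 for NK cells and 6 for monocytes were measured. Across all 26303 genes the median log2 change was -0.01, and no gene passed an adjusted p of 0.05 in limma with Benjamini-Hochberg adjustment (lowest adjusted p = 0.0576).

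HBM, which codes for haemoglobin mu, an alpha-like globin chain, was lower in every cold sample than in every control sample. Its log2 ratio in the controls was 0.07 at the lowest, 0.75 at the median and 1.99 at the highest. In the cold samples it was -0.67, -2.26, -2.24 and -1.26 in cold 1 to 4. The group means were 0.96 ± 0.81 (SD, n = 6) and -1.61 ± 0.78 (SD, n = 4), a log2 difference of -2.56, or a 5.92-fold lower ratio in the cold, and with median centring of each array in place of loess the difference was -3.89. The spread within both groups was wide, with control 1 (1.99) and control 6 (1.87) well above the next control (0.97) and cold 1 nearest to the controls. Groups that do not overlap in this direction were seen for 2.15% of all genes, a share that is given for scale only, since HBM was chosen on this contrast.

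The intensity of HBM before normalisation did not overlap between the groups either. It was 48812 in control 1 and 35693 in control 6, and between 7301 and 11724 in the other 4 controls. In cold 1 to 4 it was 4422, 962, 1405 and 2223. On the log2 Cy3 scale the means were 14.03 ± 1.23 (SD, n = 6) and 10.80 ± 1.03 (SD, n = 4), a difference of -3.22, again without overlap, as for 3.46% of all genes on that scale. All 4 probes of HBM were well above background in both channels on all 10 arrays, and no spot was saturated.

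**Figure D1:**
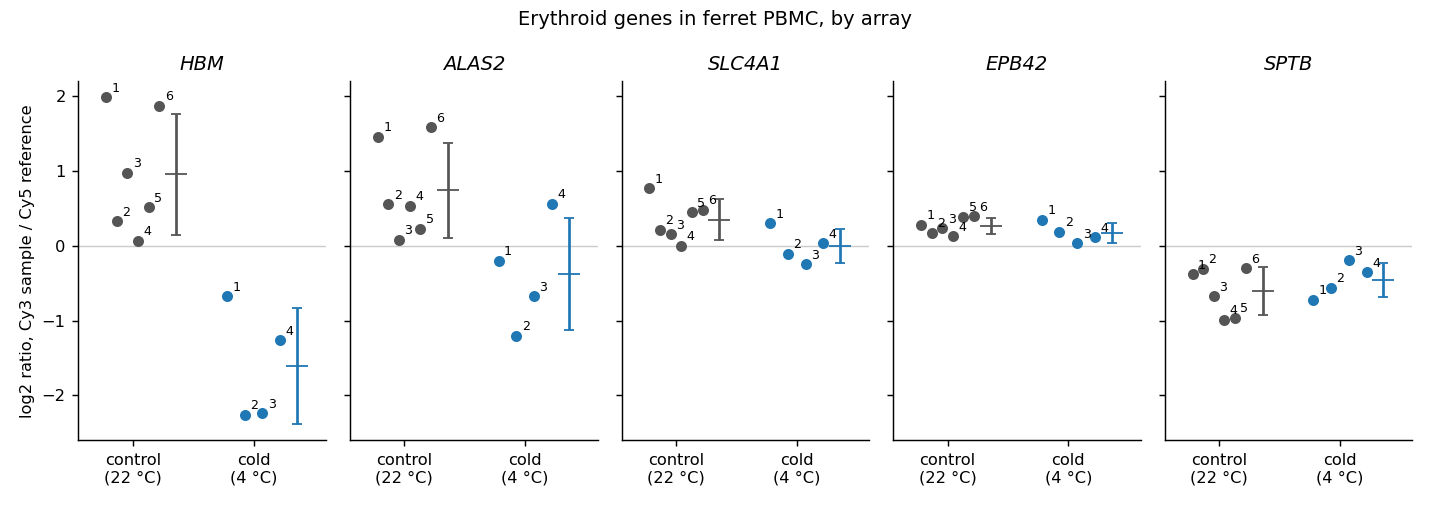
Log2 ratio of Cy3 (ferret sample) to Cy5 (reference pool) of the 5 measured erythroid genes, 1 panel per gene, with 1 point per array for 6 control (grey) and 4 cold (blue) samples, numbered by replicate, and the mean with its SD beside each group. The 4 cold values of HBM lie below all control values, while the groups overlap for ALAS2, SLC4A1, EPB42 and SPTB.

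ALAS2, the erythroid form of the first and rate-limiting enzyme of haem synthesis, had a lower mean in the cold samples, but the groups overlapped and the difference did not pass the adjusted test. Its log2 ratio in the controls was 0.08 at the lowest, 0.55 at the median and 1.59 at the highest, and in cold 1 to 4 it was -0.20, -1.20, -0.68 and 0.56. Cold 4 therefore stood within the range of the controls, at the level of control 2 (0.56) and control 4 (0.54), and the other 3 cold samples below every control. The mean was 0.74 ± 0.63 (SD, n = 6) in the controls and -0.38 ± 0.75 (SD, n = 4) in the cold samples. The log2 change was -1.12 (SE 0.38, limma, unadjusted p = 0.0126, adjusted p = 0.123). The intensity of ALAS2 was 27905 in control 6 and 18569 in control 1, and 3101 to 7586 in the other controls. It was 3268, 1143, 1841 and 4419 in cold 1 to 4. In log2 Cy3 the change was -2.09 (SE 0.67, limma, adjusted p = 0.101), and the change of the ratio was -1.73 with the scanner software's own processed signals, -2.47 with median centring and -1.997 in the deposited table.

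SLC4A1 codes for band 3, the anion exchanger that is the most abundant protein of the red cell membrane. Its intensity was 849 in control 1 and 841 in control 6, between 154 and 336 in the other controls, and 212, 88.5, 94.9 and 114 in cold 1 to 4. The highest cold value thus lay above the lowest control value, and the 2 high controls are the same ones as for HBM and ALAS2. The log2 ratio was 0.34 ± 0.27 (SD, n = 6) in the controls and -0.00 ± 0.23 (SD, n = 4) in the cold samples, a change of -0.35 (SE 0.15, limma, unadjusted p = 0.0447, adjusted p = 0.192). The means of log2 Cy3 were 8.66 ± 1.01 and 7.29 ± 0.42, a change of -1.37 (SE 0.46, limma, adjusted p = 0.110). The change of the ratio was -1.72 with processed signals, -1.24 with median centring and -0.84 in the deposited table. In Cy3 each of its 4 probes was well above background on all 6 control arrays. On the 4 cold arrays they were so on 2, 1, 3 and 4 arrays, so the cold values lay partly near background. In the reference pool its 4 probes were well above background on only 2 to 4 arrays each, and the offset of 50 in the background correction pulls the ratios of dim probes towards 0.

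EPB42 codes for a membrane protein that links band 3 to the ankyrin and spectrin network. Its signal was close to background, with an intensity of 109 to 358 in the controls (median 127) and of 126, 79.2, 68.6 and 94.1 in cold 1 to 4. Of its 4 probes, 2 were just inside the limit for a measured gene, with Cy3 well above background on 4 arrays each, and the other two were so on 9 and 7 arrays, while on cold 3 none of the 4 was. The log2 ratio was 0.27 ± 0.11 (SD, n = 6) in the controls and 0.17 ± 0.13 (SD, n = 4) in the cold samples, a change of -0.09 (SE 0.09, limma, adjusted p = 0.535) that was 0.04 in the table of values deposited by the authors, -0.66 with processed signals, -0.37 with median centring, -0.15 without cold 1 and -0.05 without cold 3. The change of log2 Cy3 was -0.62 (SE 0.29, limma, adjusted p = 0.217). Control 6 (8.60) and control 1 (8.22) were again the highest arrays in Cy3, where the other 4 controls lay between 7.00 and 7.36.

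SPTB codes for the erythroid beta spectrin, the main strand of the membrane skeleton. It had a higher mean in the cold samples on both scales, unlike the other 4 genes. Its intensity in the controls was 179 at the lowest, 200 at the median and 348 at the highest, the last in control 6, and it was 353, 300, 539 and 388 in cold 1 to 4. The log2 ratio was -0.60 ± 0.32 (SD, n = 6) and -0.46 ± 0.23 (SD, n = 4), a change of 0.14 (SE 0.17, limma, adjusted p = 0.632). It was 0.48 with processed signals, 0.50 in the deposited table, 0.23 without cold 1, and 0.06 to 0.07 without cold 3, control 4 or control 5. On the log2 Cy3 scale the means were 8.01 ± 0.32 and 8.66 ± 0.35, a change of 0.65 (SE 0.19, limma, unadjusted p = 0.00528, adjusted p = 0.0783). Cold 1 (8.54) and cold 2 (8.24) lay below control 6 (8.65) on that scale, and all 4 cold samples lay above the other 5 controls (7.78 to 7.96).

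KLF1, the transcription factor that switches on the erythroid programme including the globins, did not reach the limit of 4 arrays. Its 2 target sequences carried 8 probes, each well above background in Cy3 on 0 to 2 arrays. Control 6 had 4 of the 8 probes above background, and no cold array had more than 1. The intensity was 70.9 to 106 in the controls and 54.4 to 79.0 in the cold samples, which lies close to the background, and no change is given.

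**Figure D2:**
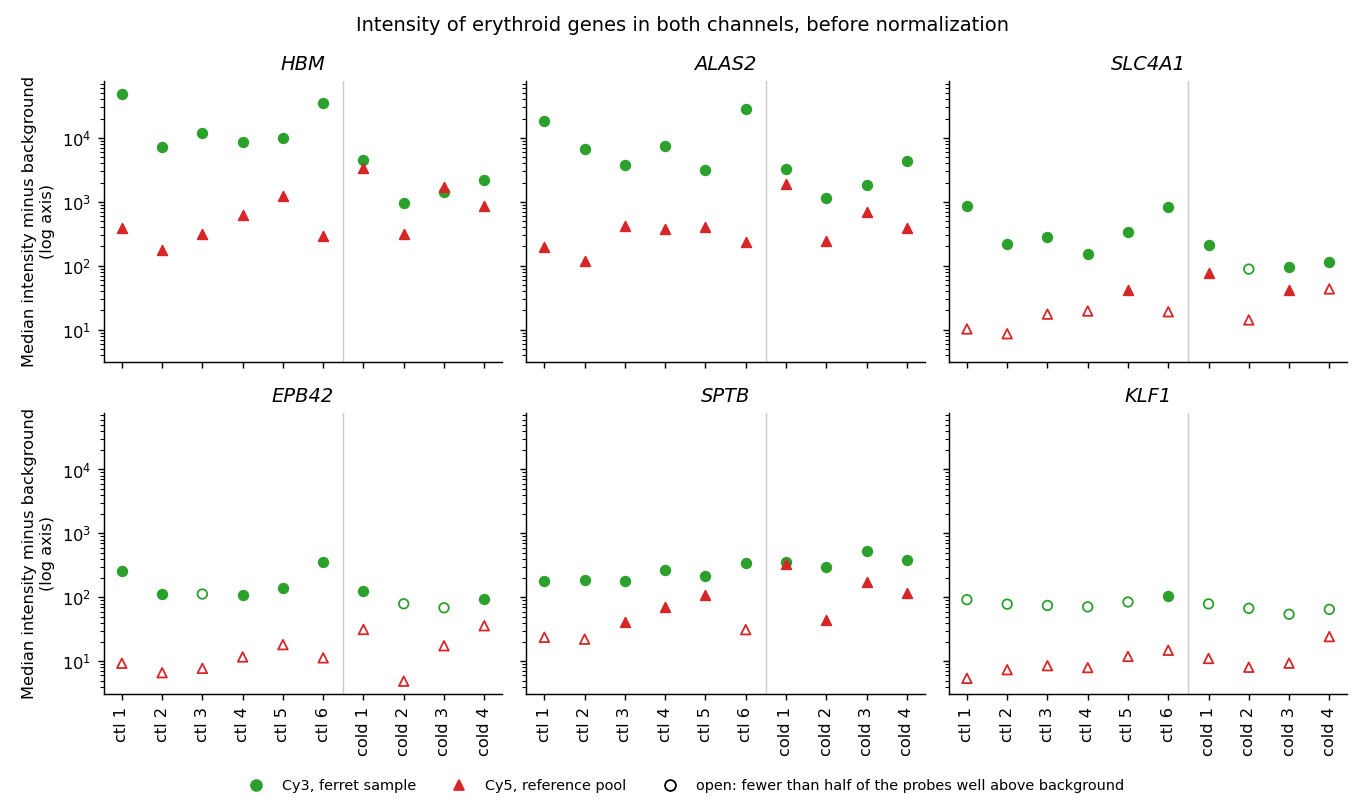
Median intensity less local background (log axis) of the 5 measured genes and KLF1 on the 10 arrays, for Cy3 (green circles, ferret sample) and Cy5 (red triangles, reference pool), before normalisation. Open symbols mark arrays on which under 50% of the probes of the gene were well above background. HBM and ALAS2 in Cy3 were highest in control 1 and control 6, and SLC4A1, EPB42 and KLF1 in Cy5 were near background on most arrays.

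Over the 4 genes that were tested, ALAS2, SLC4A1, EPB42 and SPTB, limma called none at an adjusted p of 0.05 and none at an unadjusted p of 0.01, against 0.00% and 8.64% of all genes, and the methods' t-test called none either. At an unadjusted p of 0.05, ALAS2 and SLC4A1 were lower, where 12.5% of all genes were lower at that limit. The median change of the 4 tested genes was -0.22, beside -0.01 for all genes. The mean was lower in the cold samples for 3 of the 4 (ALAS2, SLC4A1 and EPB42), where 52.0% of all genes had a lower mean. On the log2 Cy3 scale, ALAS2 (lower) and SPTB (higher) passed the unadjusted 0.01, as 9.84% of all genes did, and none of the 4 passed the adjusted 0.05, as 2.82% did.

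The arrays occupied 2 positions on their slides, and each position held both groups. Within position 1 (4 control and 2 cold arrays) the log2 ratio of HBM differed by -2.53 and within position 2 (2 and 2 arrays) by -2.49. The change of ALAS2 was -1.74 and -0.21, that of SLC4A1 -0.27 and -0.41, that of EPB42 0.02 and -0.23, and that of SPTB -0.15 and 0.54. With the position as a block the changes were -2.51 for HBM, -1.08 for ALAS2, -0.33 for SLC4A1, -0.09 for EPB42 and 0.15 for SPTB. The size for ALAS2 and the sign for EPB42 and SPTB thus differed between the positions, while HBM, which was chosen on this contrast, was nearly the same in both.

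The change of the log2 ratio ran from -2.63 to -2.47 over the probes of HBM, from -1.35 to -0.90 for ALAS2, from -0.49 to -0.18 for SLC4A1, from -0.21 to -0.04 for EPB42 and from 0.03 to 0.32 for SPTB. In log2 Cy3 it ran from -3.26 to -3.18 for HBM, from -2.14 to -2.02 for ALAS2, from -1.53 to -1.22 for SLC4A1, from -0.79 to -0.45 for EPB42 and from 0.59 to 0.68 for SPTB. All probes of a gene thus had the same sign on both scales. The probes of a gene target 1 transcript and share its array, so they are not replicates of the condition.

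**Figure D3:**
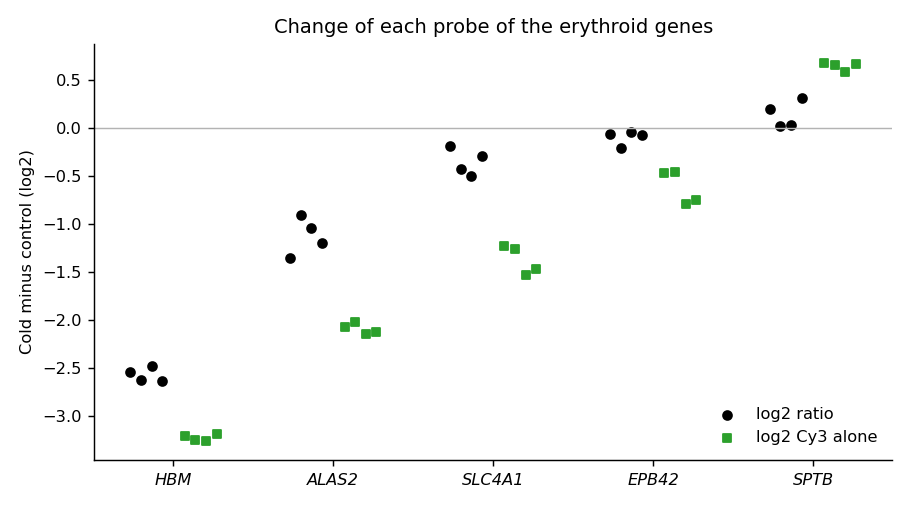
Difference of the group means, cold minus control (log2), of each of the 4 probes of the 5 measured genes, for the log2 ratio (black circles) and for log2 Cy3 alone (green squares). The probes of HBM lie between -2.63 and -2.47 for the ratio, and those of SPTB are the ones above 0.

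The Cy5 channel held the same pool on every array and is the denominator of the log2 ratio on which HBM was chosen, so its Cy5 values are given with no test. After quantile normalisation, log2 Cy5 of HBM was 9.54 ± 0.37 (SD, n = 6) on control arrays and 9.15 ± 0.14 (SD, n = 4) on cold arrays, a difference of -0.39. For ALAS2 it was -0.32 (SE 0.17, limma, adjusted p = 0.595), for SLC4A1 -0.03 and for EPB42 and SPTB -0.00, and none of these 4 passed the adjusted 0.05 (0.00% of all genes) or was lower at an unadjusted p of 0.05 (3.93%). For HBM and ALAS2, the highest arrays in Cy3 were also the highest in Cy5 after quantile normalisation. On this scale log2 Cy5 of HBM was 10.11 on control 1 and 9.88 on control 6, beside 8.96 to 9.38 on the other 8 arrays, and that of ALAS2 was 8.46 and 8.74 beside 7.66 to 8.17. This did not hold for SLC4A1, with 6.23 on control 1 and its highest value on control 3 (6.46), or for EPB42, with 6.08 on control 6 below cold 4 (6.14) and cold 1 (6.12). The part of the reference channel in the ratios of HBM and ALAS2 was not tested. Before normalisation control 1 and control 6 were not the highest arrays for HBM in Cy5. Its intensity there was 396 on control 1 and 297 on control 6, within a range of 175 to 1215 on control arrays, and 310 to 3353 on cold arrays. When Cy5 was centred on the median of each array in place of quantile normalisation, the difference of HBM was 0.75 and that of ALAS2 0.44.

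Around these genes, 51 other genes of erythroid pathways were measured, out of 88 listed by role. Their mean was higher in the cold samples for 30 and lower for 21, with a median change of 0.03, beside -0.01 for all genes. With other scalings the split was 28 to 23 (no background subtraction), 24 to 27 (Cy3 alone), 21 to 30 (processed signals of the scanner software), 18 to 33 (deposited table) and 9 to 42 (median centring, which moved the median of all genes to -0.43). In limma none passed the adjusted 0.05, 10 were higher and 10 lower at an unadjusted p of 0.05 (12.2% and 12.5% of all genes), and the methods' t-test called none after adjustment. At an unadjusted p of 0.01, 5 were higher (background 5.21%) and 5 lower (3.43%). Without 1 array, this count of 10 was 3 without cold 1 (6.35% of all genes in that fit) or cold 3 (4.85%), 4 without control 1 (5.42%), 5 without control 2 (5.72%), and 6 without control 3 (6.85%) or cold 4 (7.82%). Without cold 2, 7 genes passed the adjusted 0.05, all of them higher (UROS, SLC25A37, STOM, RHAG, GATA1, GFI1B and EPOR), with log2 changes of 0.44 for EPOR to 1.57 for UROS, where 1272 of all genes (4.84%) passed, 3.35% as higher. Without control 5, UROS (1.27) and SLC25A37 (0.75) passed as higher and ABCB6 (-0.55) as lower, where 633 of all genes (2.41%) passed.

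**Figure D4:**
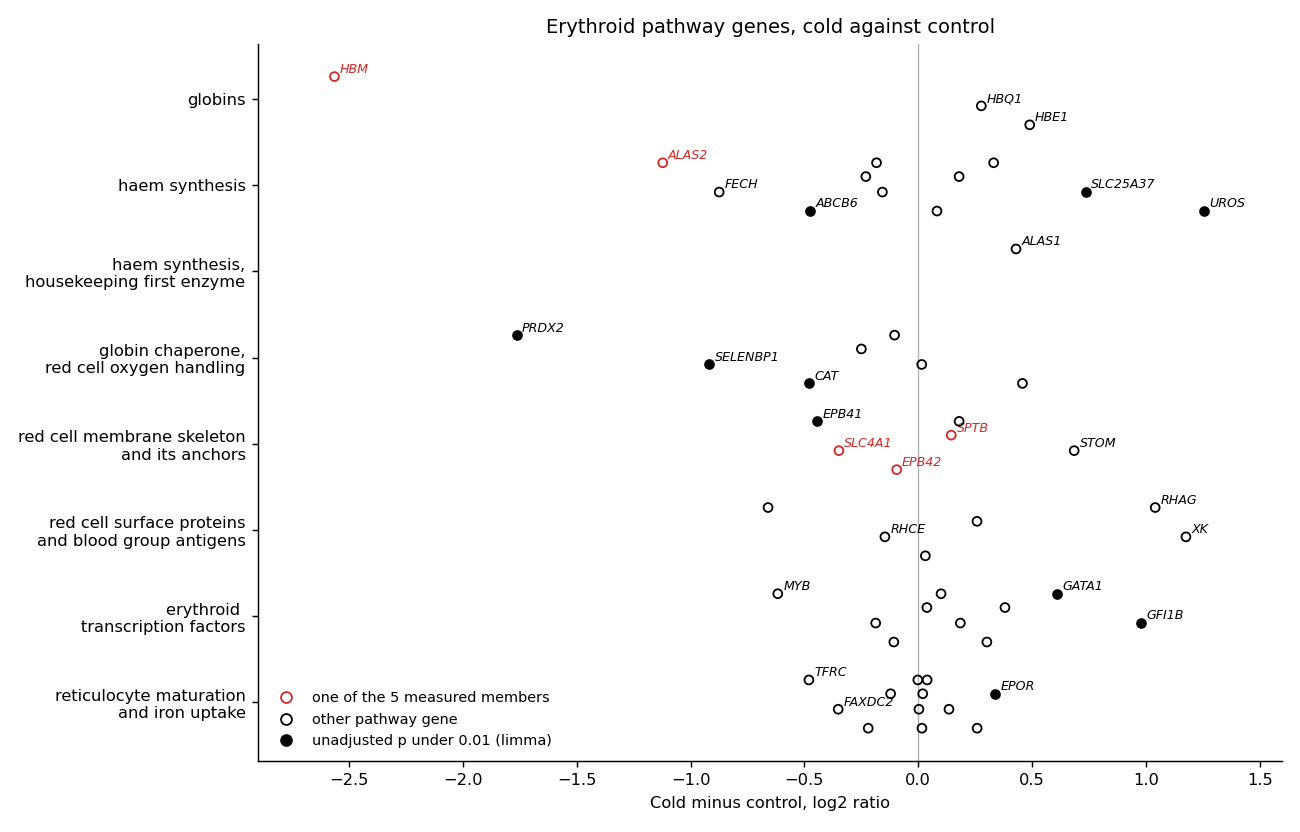
Difference of the group means, cold minus control (log2 ratio), of every measured gene in the 8 erythroid lists, 1 point per gene, with the members in red. Filled points passed an unadjusted p of 0.01 in limma (HBM was not tested), and HBM, PRDX2 and ALAS2 lie farthest to the left, UROS, XK and RHAG farthest to the right.

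Of 11 globin genes listed, HBM, HBE1 and HBQ1 were measured, and the latter pair did not share the difference of HBM. HBE1, an embryonic beta-like globin by its name, had a Cy3 intensity of 20379 in control 1 and of 66982 to 180554 on the other 9 arrays. Control 1, the array with the highest HBM, thus had the lowest HBE1. The log2 ratio of HBE1 was 0.73 ± 0.88 (SD, n = 6) and 1.22 ± 0.64 (SD, n = 4), a change of 0.49 (SE 0.44, limma, adjusted p = 0.526) that was -0.05 in the deposited table, -0.64 with median centring, 0.18 without control 1 and 0.79 without cold 2. HBQ1, an alpha-like globin of the same cluster as HBM, had a change of 0.28 (SE 0.15, limma, adjusted p = 0.279) that was -0.28 with median centring, 0.56 in the deposited table and 0.18 without control 3, with 1 probe kept. The adult alpha and beta globins HBA1 and HBB were not matched by symbol. A protein-coding locus without a gene name, LOC101673656, is listed between HBA1 and HBM in the RefSeq table and was looked up after the values of HBM were seen. Its Cy3 intensity was 235495 to 489841 in the controls and 213149, 117314, 90407 and 254980 in cold 1 to 4, and its log2 ratio was lowest in cold 2 (-3.13) and cold 3 (-3.10), the arrays with the lowest HBM. The change was -1.18 (SE 0.40, limma, adjusted p = 0.124) with overlapping groups, and -2.45 with median centring or -1.85 in the deposited table. Globin genes of a cluster resemble each other in sequence, and how far their probes take up RNA of each other was not tested.

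In haem synthesis, 11 genes were measured, of which 5 had a higher and 6 a lower mean (median change -0.16). The genes at the upper end were UROS, which makes uroporphyrinogen III, and SLC25A37, mitoferrin 1, which brings iron into the mitochondria of erythroblasts. UROS was 0.15 to 0.66 in the controls and 2.04, 0.69, 2.29 and 1.54 in cold 1 to 4 (log2 change 1.25, SE 0.26, limma, unadjusted p = 0.000487, adjusted p = 0.0670). SLC25A37 was 0.50 to 0.82 in the controls and 1.17, 1.15, 1.80 and 1.56 in cold 1 to 4 (log2 change 0.74, SE 0.13, limma, unadjusted p = 0.00014, adjusted p = 0.0576), and its change was 0.48 with processed signals, 0.38 in the deposited table and -0.05 with median centring. For both, every cold sample lay above every control, as for 3.07% of all genes. At the lower end beside ALAS2 stood FECH, ferrochelatase, the last enzyme of the pathway, which the rule for named genes did not cover and which was chosen after its values were seen. FECH was -0.21 to 1.63 in the controls, highest in control 6 (1.63) and control 1 (1.11). It was within -0.47 to -0.37 in the 4 cold samples, below every control, as for 2.15% of all genes. The log2 change of FECH was -0.87 (SE 0.32, limma, adjusted p = 0.141), and it was -1.90 with median centring and -1.44 in the deposited table. ABCB6, a porphyrin transporter, had a change of -0.48 (SE 0.14, limma, unadjusted p = 0.00641, adjusted p = 0.102) that was 0.19 in Cy3 alone, -0.11 with processed signals and -0.83 with median centring. ALAS1, the housekeeping form of the first enzyme, had a change of 0.43 (SE 0.30, limma, adjusted p = 0.391) that was -0.04 in the deposited table, -0.61 with median centring, 0.74 without cold 1 and 0.20 without cold 4.

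Of the genes that protect red cells from oxidation or handle their oxygen, 7 were measured, 2 with a higher and 5 with a lower mean (median change -0.25). PRDX2, peroxiredoxin 2, one of the most abundant proteins of red cells, had the largest difference of the 51 genes. Its log2 ratio was highest in control 6 (1.40) and control 1 (0.80), -0.90 to 0.11 in the other controls, and -1.59, -2.38, -2.55 and -0.64 in cold 1 to 4, so that cold 4 alone reached into the control range. The change was -1.76 (SE 0.51, limma, unadjusted p = 0.00559, adjusted p = 0.0980). SELENBP1, a selenium-binding methanethiol oxidase, had a change of -0.92 (SE 0.29, limma, adjusted p = 0.113), and CAT, catalase, of -0.48 (SE 0.13, limma, adjusted p = 0.0924). In Cy3 alone these changes were -1.90 for PRDX2, -0.31 for SELENBP1 and -0.15 for CAT. With median centring that of PRDX2 was -2.93 and that of CAT -1.45, the latter being -0.90 in the deposited table, and with processed signals that of SELENBP1 was -0.51.

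Of the membrane skeleton and its anchors, 3 genes were measured beside SLC4A1, EPB42 and SPTB. EPB41, whose protein ties spectrin to actin, was 0.25 to 0.85 in the controls and -0.06, 0.36, 0.01 and 0.14 in cold 1 to 4 (log2 change -0.44, SE 0.14, limma, unadjusted p = 0.00796, adjusted p = 0.109), and its change was -1.48 with median centring and -0.95 in the deposited table. It was again highest in control 6 (0.85) and control 1 (0.83). STOM, stomatin, a protein of the inner membrane face that many cell types make, had a change of 0.68 (SE 0.25, limma, adjusted p = 0.135), which was -0.21 with median centring and 0.27 in the deposited table. Of the surface proteins, 6 were measured, 4 with a higher and 2 with a lower mean (median change 0.14). Those with the largest differences were XK, which carries the Kx blood group antigen, and RHAG, the Rh-associated glycoprotein. The change was 1.18 for XK (SE 0.38, limma, adjusted p = 0.117) and 1.04 for RHAG (SE 0.36, limma, adjusted p = 0.126), and that of XK was 0.56 with median centring. Their Cy3 was lowest in control 1, with log2 values of 9.73 and 7.21, and high in control 6, with 12.68 and 10.27. RHAG was dim in control 1 (intensity 114), and it dropped out when Cy5 too had to be well above background on at least 4 arrays. AQP1 went the other way, with a change of -0.66 (SE 0.30, limma, adjusted p = 0.197).

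Of the erythroid transcription factors, 10 were measured, 7 with a higher and 3 with a lower mean (median change 0.14, with 4 higher and 6 lower in Cy3 alone). GFI1B, a repressor needed for erythroid and megakaryocyte development, was 0.27 to 1.03 in the controls and 1.90, 0.82, 2.14 and 1.90 in cold 1 to 4 (log2 change 0.98, SE 0.24, limma, unadjusted p = 0.00195, adjusted p = 0.0767). GATA1, the master factor of both lineages, was 0.17 to 0.61 in the controls and 1.40, 0.41, 1.35 and 0.86 in cold 1 to 4 (log2 change 0.61, SE 0.19, limma, adjusted p = 0.107). The change of GFI1B was 0.41 with processed signals and 0.52 with median centring, and it did not pass the unadjusted 0.01 with either. In log2 ratio cold 2 alone reached into the control range in both genes. In log2 Cy3 GATA1 was 9.78 in control 6, above all 4 cold samples (8.85 to 9.73). GFI1B was 11.14 in control 6 on that scale, above cold 1 (10.96) and cold 2 (10.28). MYB, a factor of progenitor cells that is shut down as erythroblasts mature, had a change of -0.62 (SE 0.25, limma, adjusted p = 0.164) that was -0.15 in Cy3 alone and -0.16 in the deposited table. Of the 12 measured genes of reticulocyte maturation and iron uptake, 7 had a higher and 5 a lower mean (median change 0.01). EPOR, the erythropoietin receptor, had a change of 0.34 (SE 0.10, limma, unadjusted p = 0.00717, adjusted p = 0.106), with a low median intensity of 84.8 in the controls and 125 in the cold samples. That change was 1.43 with processed signals, 0.90 in the deposited table and 0.61 with median centring. TFRC, the transferrin receptor, had a change of -0.48 (SE 0.20, limma, adjusted p = 0.181), and FAXDC2 of -0.35 (SE 0.23, limma, adjusted p = 0.357). With median centring these were -1.32 and -1.28, and in the deposited table -0.86 and -0.75, while that of FAXDC2 was -0.19 in Cy3 alone and -0.17 without cold 4.

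GATA1 and GFI1B are also made by megakaryocytes, the source of platelets, and the platelet markers had higher means as well. Of 13 platelet markers, 8 were measured and all 8 had a higher mean in the cold samples (median change 0.87), among them TREML1 and GP9. Their mean log2 ratio was -0.04 to 1.30 in the controls and 0.86 to 1.75 in the cold samples. The defining markers PF4 and PPBP were not matched. The T cell markers had a lower mean in 8 of 9 (median change -0.38), with a mean log2 ratio of -0.09 to 0.23 in the controls and -0.72 to -0.02 in the cold samples. The monocyte markers had a higher mean in 5 of 6 (0.44), and so had 4 of 4 markers of mature neutrophils (0.96) and 2 of 2 of granulocyte precursors (1.22). B cell markers had a lower mean in 5 of 6 (-0.16) and NK cell markers a higher mean in 3 of 3 (0.09). With median centring, 7 of 8 platelet, 2 of 4 neutrophil, 0 of 6 monocyte and 1 of 3 NK cell markers had a higher mean, with medians of 0.30, 0.04, -0.51 and -0.89. Relative to the median of all genes at that scaling (-0.43), these medians were 0.72, 0.46, -0.09 and -0.46. The median of the T cell markers was -0.66 in Cy3 alone, -0.77 with processed signals, -0.82 in the deposited table and -1.38 with median centring. For the B cell markers it was -0.57, -0.49, -0.54 and -0.97 in the same order, with 6 of 6 lower in each. In the deposited table the median was -0.03 for monocyte (3 of 6 higher), -0.37 for NK cell (1 of 3) and 0.52 for neutrophil markers (3 of 4, and 0.58 with processed signals), and NK cell markers also had 1 of 3 higher with processed signals (-0.08) and in Cy3 alone (-0.06). The part of these cell types in the erythroid values was not tested.

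Several erythroid genes shared the same pair of high arrays. Control 1 and control 6 were the 2 highest of the 10 arrays in log2 ratio for HBM, ALAS2 and SLC4A1, and in log2 Cy3 for these and EPB42. The same held in log2 ratio for 6 of the 51 other pathway genes, PRDX2, FECH and EPB41 among them, and for 4.52% of all genes. In log2 Cy3 it held for 8 of the 51, to which RHCE, a Rh blood group protein, belonged, and for 4.75% of all genes. RHCE had 1 probe kept and lay close to background, with a median intensity of 122 in the controls and 88.3 in the cold samples. HBE1, UROS, XK and RHAG did not follow, and had their lowest Cy3 in control 1. No sample label set these arrays apart, but both lay at slide position 1, as did control 2 and control 4. The pattern was looked for after the values of HBM were seen. Within positions 1 and 2 the change was -2.38 and -0.72 for PRDX2, and -1.14 and -0.33 for FECH. Control 6 also had the lowest share of spots above background in Cy5 (27.0%). The part of position and of Cy5 signal in the pattern was not tested.

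**Figure D5:**
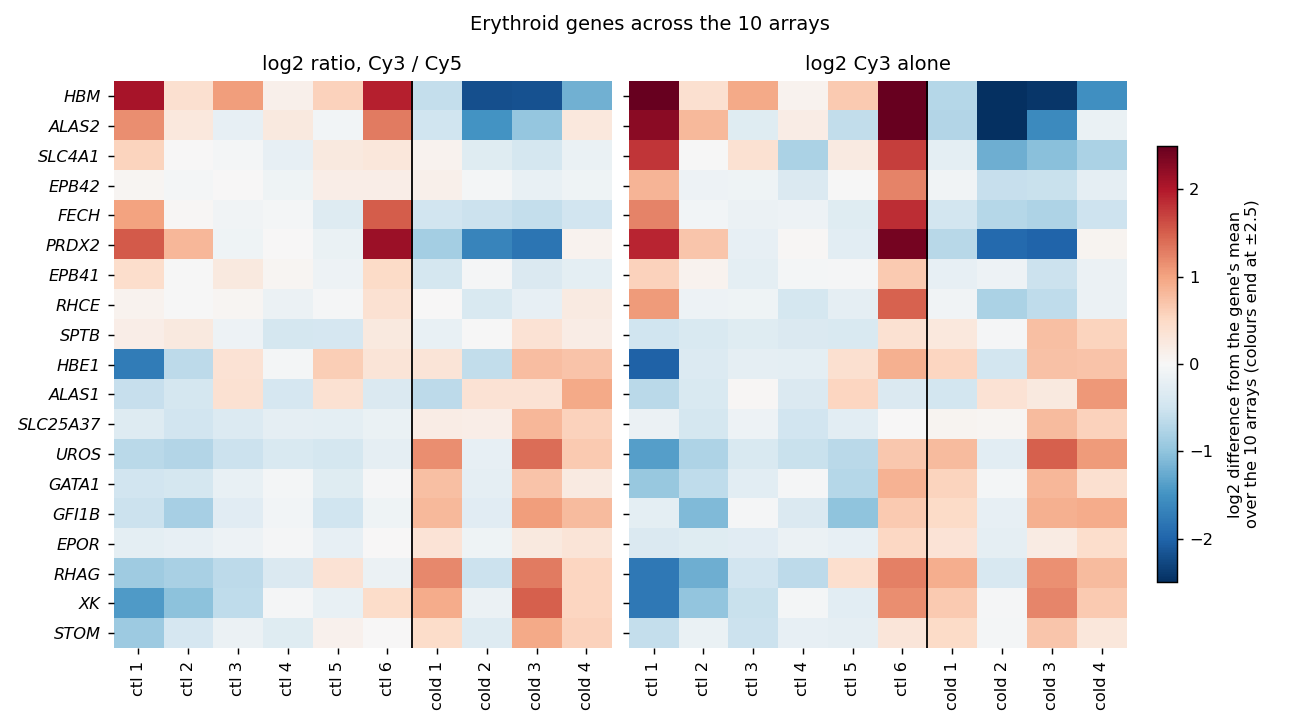
Heatmap of 19 erythroid genes (rows) over the 6 control and 4 cold arrays (columns), as the log2 difference of each value from the gene's mean over the 10 arrays, for the log2 ratio (left) and for log2 Cy3 alone (right). HBM, ALAS2, FECH and PRDX2 are highest in control 1 and control 6, whereas UROS, GATA1, RHAG and XK are low in control 1 and higher in cold 1 and cold 3.

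Across the 10 arrays, which include both groups, log2 Cy3 of HBM ran alongside that of SLC4A1 (Pearson r = 0.94, Spearman rho = 0.96), ALAS2 (0.90 and 0.77) and EPB42 (0.87 and 0.87), and not with that of SPTB (-0.50 and -0.58). Without cold 2 and control 1, the arrays farthest from the median of HBM, r was 0.91, 0.80, 0.81 and -0.51. On the log2 ratio r was 0.86 for both ALAS2 and SLC4A1, 0.64 for EPB42 and -0.10 for SPTB. Without cold 2 and cold 3, the arrays farthest from the median of HBM on that scale, r was 0.69 for ALAS2, 0.73 for SLC4A1, 0.48 for EPB42 and 0.23 for SPTB. These values describe 10 arrays that share a group difference and the normalisation of each array. On cold arrays some probes of SLC4A1 and EPB42 were not well above background in Cy3. By the same measure, the 5 named genes whose log2 ratio was most like that of HBM among 8340 were ZNF24, TMEM19, NACA, ARC and TCEA3, with r between 0.91 and 0.94. Those most like the mean of HBM, ALAS2, SLC4A1 and SPTB, the members with a probe above background on every array, were PRDX2 (0.96), TENT5C (0.94), ZNF24 (0.92), CCL1 (0.91) and SLC25A39 (0.91).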

How the data were processed

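PBMC RNA of 6 control and 4 cold ferrets was measured on 10 two-colour Agilent arrays. The authors deposited, per array, spot intensities (median and local background of both channels, not normalised) with flags for background, saturation and outliers from Agilent Feature Extraction 10.7.3.1, and a table holding 1 log2 value for each target sequence and array, whose centring is not given in the sources used here. Using limma 3.58.1 in R 4.3.3, intensities were background-corrected (normexp, offset 50) and loess-normalised (span 0.3, 4 iterations). Outlier spots were dropped, and spots and then probes were averaged. Probes needed at least 0.5 of their spots above background on 4 arrays, which kept 111051 probes. Names came from RefSeq (assembly ASM1176430v1.1) for 21104 of 45328 target sequences, and 9276 of 26303 genes had a symbol. Groups were compared by lmFit and eBayes without covariates, with Benjamini-Hochberg adjustment over all genes. Changes are on the log2 scale.

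Members and lists were chosen with earlier results of these data known. Named genes were the members, pathway genes past an unadjusted p of 0.01, the 2 largest changes in each list, and the 5 genes most like HBM and like the members' mean. On simulated data for this comparison, in which 200 of 26303 genes were shifted by 2 log2 units, 97.5% were recovered and 4.41% of calls were false. The simulated noise was independent between genes, and the shift was larger than the change of any tested member in the reported fit. These shares therefore do not show how often changes of the size seen in the members would be found. Precision is limited by the number of arrays. Sequences and coordinates are not given here. Alternatives covered the background correction, scaling, Cy3 alone, the deposited table, filters, probe summary, the methods' t-test, array weights, position and replicate blocks, and leaving out each array.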

Additional observations from a re-analysis of the deposited data

How the results depend on the processing

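HBM, which was chosen on this contrast, was lower in the cold samples under all 24 alternatives, with a difference of -3.89 (median centring) to -2.35 (without cold 2). The alternatives reuse the same arrays, so this describes the processing and does not test HBM. No tested member passed the adjusted 0.05 under any alternative. The change of ALAS2 ran from -2.47 to -0.85 (adjusted p 0.0791 to 0.276), of SLC4A1 from -1.72 to -0.26 (0.110 to 0.407), of EPB42 from -0.66 to 0.04 (0.217 to 0.936) and of SPTB from 0.04 to 0.65 (0.0783 to 0.923). The count of tested members at an unadjusted p of 0.01, which was 0, was 2 with processed signals (ALAS2 and SLC4A1, beside 5.50% of all genes), 2 in Cy3 alone (ALAS2 and SPTB, 9.84%), 1 (ALAS2) with no background subtraction (8.19%), median centring (4.42%), the deposited table (4.14%) and the median over probes (8.60%), and 0 to 1 when leaving out each array. Of the 51 other pathway genes, 10 passed that limit, beside 8.64% of all genes, and 4 did with processed signals, 2 with median centring, 5 in Cy3 alone, 3 in the deposited table, 5 with the methods' t-test (6.56% of all genes), 5 with the slide position as a block (7.88%), and 3 to 13 when leaving out each array (4.85 to 12.9%). At the adjusted 0.05, where none passed, 1 did (SLC25A37) with Cy3 above background on all arrays, and 0 to 7 when leaving out each array. Over all genes the adjusted count, 0 in the reported fit, was 741 in Cy3 alone, 115 with that stricter filter, 5 with the position block, 12 without cold 1, 1272 without cold 2 and 633 without control 5.

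The median of all genes was -0.43 with median centring and -0.16 with processed signals, and the share of lower genes at an unadjusted p of 0.01, 39.7% as reported, was 81.5% and 69.7%, and 53.6% in the deposited table. Signs turned with median centring for HBE1 (-0.64), SLC25A37 (-0.046), ALAS1 (-0.61), STOM (-0.21) and HBQ1 (-0.28). Relative to that median, HBE1 (-0.21) and ALAS1 (-0.18) stayed below 0, and SLC25A37 (0.38), STOM (0.22) and HBQ1 (0.14) above it. Signs also turned in Cy3 alone for ABCB6 (0.19) and in the deposited table for EPB42 (0.041), HBE1 (-0.051), ALAS1 (-0.042) and RHCE (0.40, from -0.15, beside -1.49 with processed signals and -0.69 in Cy3 alone). In Cy5 centred on the median of each array they turned for HBM (0.75), ALAS2 (0.44) and SPTB (0.39). The cause was not tested. Replicate numbers did not pair the samples (correlation of same-numbered deviations -0.301, 0.543, 0.0963 and -0.189). With the replicate number as a block the members' count at an unadjusted p of 0.01 stayed 0 and the pathway genes' count was 13, beside 9.35% of all genes. Among the members, low signal over background limits EPB42, SLC4A1 and KLF1. Their Cy5 was mostly not well above background, and nor was the Cy3 of KLF1.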
